A study of Homo sapiens with 16 samples.

Results

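The genes described are 10 feedback and inflammatory targets of the transcription factor NF-kB, chosen by symbol from a table of 78894 genes: NFKBIA, TNFAIP3, NFKB1, NFKB2, RELB, IL6, LIF, ICAM1, BIRC3 and SOD2. Each symbol had 1 row. Transcripts were counted in 16 poly(A)-selected RNA-seq libraries, each from 1 well of a three-dimensional culture on matrigel harvested on day 8. The cells were MCF10DCIS.com, a human breast line that forms lesions resembling ductal carcinoma in situ. All 4 conditions descend from 1 clone edited to lack PCSK5, a convertase that cleaves precursors of secreted proteins, and all received 1 µg/ml doxycycline from day 4 to switch on a V5-tagged PCSK5 allele. The conditions were the M452I allele, the T288P allele grown throughout with 250 ng/ml recombinant mature GDF11 (T288P+GDF11), the T288P allele alone, and the wildtype allele (WT). Each had 4 wells, and each allele is represented by 1 polyclonal line, so p-values measure the spread between wells of a line, not between independently made lines.

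NF-kB is a family of dimeric transcription factors that inhibitor proteins hold in the cytoplasm until a cytokine or stress signal triggers their degradation. Among the genes it then switches on are its own inhibitors, which end the signal, and its own precursors, as well as cytokines, adhesion molecules and survival factors. In breast epithelium the pathway is known for its activity in basal-like cancers. GDF11, the ligand added here, belongs to the TGF-beta family and signals through SMAD2 and SMAD3.

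Promoters are shown because NF-kB recognises a short DNA motif, the kappa-B consensus. BIRC3, which passed the test with GDF11 described below, and NFKBIA and TNFAIP3, which did not, carry it close to a RefSeq start. These genes were not tested against each other, and the part of the motif in their levels was not tested. RefSeq (GRCh38.p14) gave promoter windows for 8 of the 10 genes. The 10-base consensus was GGGRNNYYCC, where R is A or G, Y is C or T and N is any base. It was searched on both strands in the 250 bases before each listed start, with overlapping matches counted separately. It matched in 6 of those 8 genes (NFKBIA, TNFAIP3, NFKB1, NFKB2, IL6 and BIRC3), against 11.8% of all 27305 genes with a window. The genes were chosen as NF-kB targets, so a high share was built into the choice. They also had 14 windows for 8 genes, where all 27305 genes had 35116, and more windows give more room for a match. No match to these letters lay in the windows of ICAM1 or SOD2, which does not exclude sites that depart from them. The ICAM1 window holds tggaaattcc, which differs from the consensus only in its opening base. In the sequences of BIRC3 (chr11:102317234-102317483, plus strand), NFKBIA (chr14:35404750-35404999, minus strand) and TNFAIP3 (chr6:137867009-137867258, plus strand), capitals mark the matches.
BIRC3: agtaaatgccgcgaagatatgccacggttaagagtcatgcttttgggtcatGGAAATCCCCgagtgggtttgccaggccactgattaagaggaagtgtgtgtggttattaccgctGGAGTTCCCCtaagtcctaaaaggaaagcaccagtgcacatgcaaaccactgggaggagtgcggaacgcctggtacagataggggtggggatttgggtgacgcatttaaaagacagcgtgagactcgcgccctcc
NFKBIA: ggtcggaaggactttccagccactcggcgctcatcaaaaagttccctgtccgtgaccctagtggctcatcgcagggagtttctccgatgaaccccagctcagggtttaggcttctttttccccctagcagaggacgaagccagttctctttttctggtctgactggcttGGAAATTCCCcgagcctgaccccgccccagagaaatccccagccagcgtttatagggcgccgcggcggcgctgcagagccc
TNFAIP3: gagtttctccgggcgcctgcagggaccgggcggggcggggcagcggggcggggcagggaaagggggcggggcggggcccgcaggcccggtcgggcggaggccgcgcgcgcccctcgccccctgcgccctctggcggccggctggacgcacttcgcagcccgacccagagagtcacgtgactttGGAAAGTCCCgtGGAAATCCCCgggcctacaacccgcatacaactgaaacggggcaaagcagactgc
The matches began 199 and 135 bases before the RefSeq start of BIRC3, 81 bases before that of NFKBIA, and 67 and 55 bases before that of TNFAIP3. RefSeq starts can differ from the GENCODE gene starts given below. The TNFAIP3 matches lie after its GENCODE start of 137867188, and the ICAM1 window, from 10270870, lies after the ICAM1 start of 10270835. They describe the letters in these windows and were not tested for binding.

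The libraries held 28.5 to 50.8 M counts, and 16790 genes passed the filter on low counts. Of the 10 genes, 9 passed and IL6 did not. Levels are CPM (counts per M, scaled with TMM factors), given as mean ± SD of 4 wells. PCSK5 transcript stood between 25.3 and 66.8 CPM over the 16 wells, a count that may hold reads of both the edited gene and the added allele and so does not check the knockout. Epithelial markers summed to at least 3994 CPM in every well, whereas leukocyte markers other than CD68 summed to at most 1.27 CPM. In a well, CD3E reached at most 2 counts, PTPRC 11, ITGAM 7, LYZ 17 and CD14 30. CD68, a lysosomal gene on the leukocyte list, was detected in every well, at 3343 to 10497 counts, and was lower with GDF11 (114 ± 11.8 CPM in T288P+GDF11 and 171 ± 29.8 CPM in T288P, edgeR adjusted p = 0.0344). M452I replicate 4 stood apart from its group on the first principal component of log2 CPM, with a score of 40.6, where its 3 companions had -50.7 to -34.8. T288P replicate 1 did the same at -47.1, where the rest of its group had 3.4 to 9.8. That score lay within the range of the other 3 M452I wells, as did WT replicate 2 (-37.9) and WT replicate 4 (-44.6). The reason was not tested. Values that rest on M452I replicate 4 or T288P replicate 1 are given with and without these 2 wells.

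With GDF11, SOD2 and BIRC3 rose in the T288P line. The transcripts of the inhibitors NFKBIA and TNFAIP3 and of the subunit genes NFKB1, NFKB2 and RELB did not pass the test. ICAM1, 1.42-fold higher, did not pass either. Not passing does not show that a gene was unchanged: of 50 genes given a 1.5-fold change in simulated counts, the test called 24. Those 50 were drawn at random from the better-counted genes and given the general trend of spread. The share called is therefore not the rate for the 9 genes tested here. Their own standard errors in T288P+GDF11 against T288P ran from 0.09 (NFKB2) to 0.22 (RELB) log2 units. SOD2 rose 1.67-fold and BIRC3 1.43-fold against untreated T288P. By edgeR's quasi-likelihood test, adjusted by Benjamini-Hochberg over all genes, these were 2 higher and 0 lower among the 9 genes tested, where 12.9% of all tested genes were called, 5.07% higher and 7.88% lower. The median log2 fold change of the 9 genes was -0.01, against -0.02 over all genes. In bulk cultures, more cells that transcribe a gene and more RNA per cell cannot be told apart, nor can fewer cells and less RNA per cell.

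**Figure D1:**
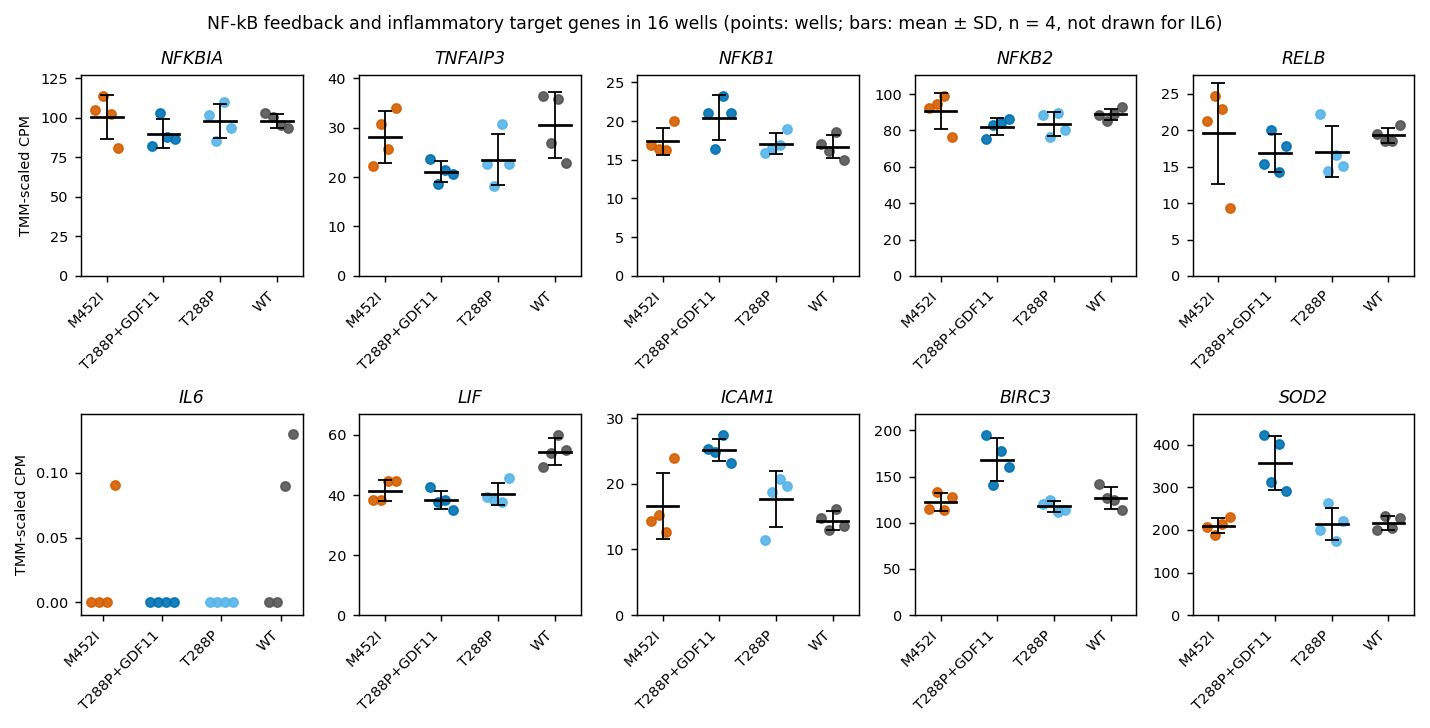
TMM-scaled CPM (vertical axes, each from its own 0) of the 10 genes in the 16 wells, by condition. Points are wells, and bars are mean ± SD of 4 wells, not drawn for IL6. The T288P+GDF11 wells of SOD2 lie between 292 and 422 CPM, above every other well, and the WT wells of LIF lie above all others.

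SOD2 (ENSG00000291237; RefSeq places the symbol on chromosome 6, 159669069 to 159762281, GRCh38.p14) encodes the mitochondrial manganese superoxide dismutase, which turns superoxide into hydrogen peroxide. It measured 422, 313, 401 and 292 CPM in the T288P+GDF11 wells, against 200, 262, 174 and 221 CPM in the T288P wells. Every well with GDF11 was above every well without it, and the spread was wide in both conditions. The means were 357 ± 64.2 CPM in T288P+GDF11 and 214 ± 37.4 CPM in T288P (log2 fold change 0.74 ± 0.13 SE, with an edgeR adjusted p of 0.00167). The M452I mean was 210 ± 17.2 CPM and the WT mean 216 ± 16.7 CPM, so the 3 conditions without GDF11 could not be ordered. Dropping any of the 8 wells kept the call, with an edgeR adjusted p of 0.00948 at most.

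BIRC3 (ENSG00000023445; chromosome 11, 102317450 to 102339403, GRCh38 with GENCODE release 29, as for the genes after it) encodes cIAP2, a ubiquitin ligase that restrains cell death and sits in the TNF receptor complex. It measured 195, 141, 177 and 160 CPM in the T288P+GDF11 wells, against 121, 125, 112 and 114 CPM in the T288P wells. The groups did not overlap. The means were 168 ± 22.8 CPM in T288P+GDF11 and 118 ± 5.91 CPM in T288P (log2 fold change 0.52 ± 0.10 SE, with an edgeR adjusted p of 0.00264). The lowest well with GDF11 lay within the range of the WT wells, which had 142, 127, 125 and 113 CPM. Against WT the log2 fold change was 0.41 (SE 0.10, edgeR adjusted p = 0.00434). With any 1 well dropped, the call against T288P stayed, at an edgeR adjusted p of 0.0133 or less.

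ICAM1 (ENSG00000090339; chromosome 19, 10270835 to 10286615), the adhesion molecule that leukocyte integrins bind, had 25.3, 24.8, 27.4 and 23.2 CPM in the T288P+GDF11 wells, against 11.46, 18.8, 20.7 and 19.7 CPM in the T288P wells. The groups did not overlap, as was so for SOD2, BIRC3 and ICAM1 among the 9 genes and for 22% of all genes. The means, 25.2 ± 1.72 CPM in T288P+GDF11 and 17.7 ± 4.21 CPM in T288P, did not pass the test (log2 fold change 0.51 ± 0.18 SE, with an edgeR adjusted p of 0.071). T288P replicate 1 was the lowest of these wells, and dropping it alone gave an edgeR adjusted p of 0.206. Without it and M452I replicate 4, the log2 fold change was 0.35 (SE 0.10, edgeR adjusted p = 0.0281), smaller but past the threshold, and a fit of only the T288P+GDF11 and T288P wells also called it (edgeR adjusted p = 0.034). By DESeq2 the adjusted p was 0.0352.

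NFKBIA (ENSG00000100906; chromosome 14, 35401511 to 35404749) encodes IkBa, the inhibitor that NF-kB resynthesises first. It had 82.3, 103, 88.3 and 86.8 CPM in the T288P+GDF11 wells, against 102, 85.4, 110 and 93.9 CPM in the T288P wells. The groups overlapped, and the log2 fold change was -0.12 (SE 0.10, edgeR adjusted p = 0.489). TNFAIP3 (ENSG00000118503; chromosome 6, 137867188 to 137883312) encodes A20, a ubiquitin-editing enzyme that shuts the pathway off upstream. Its wells had 23.7, 18.6, 21.5 and 20.6 CPM in T288P+GDF11, against 22.7, 18.3, 30.7 and 22.6 CPM in T288P, with overlap and a log2 fold change of -0.16 (SE 0.17, edgeR adjusted p = 0.576).

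Ratios of counts within a well, which no scaling between libraries can move, set SOD2 and BIRC3 against the inhibitors. SOD2 had 4.02 ± 0.986 counts for each count of NFKBIA in T288P+GDF11 and 2.24 ± 0.639 in T288P (SD, n = 4 wells each), with ranges of 3.03 to 5.13 and 1.58 to 3.07 that just overlapped. BIRC3 had 7.97 ± 0.322 counts for each count of TNFAIP3 in T288P+GDF11 and 5.21 ± 1.3 in T288P. For BIRC3 and TNFAIP3 the 4 wells with GDF11, at 7.62 to 8.27, lay above all 12 others, of which the highest was 6.83. BIRC3 had 1.9 ± 0.414 counts for each count of NFKBIA in T288P+GDF11 and 1.22 ± 0.183 in T288P, and the ranges of 1.37 to 2.36 and 1.02 to 1.46 overlapped. A ratio shows unequal change and does not say which gene moved. These pairs were chosen after the values were seen, and no test was made on them.

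**Figure D2:**
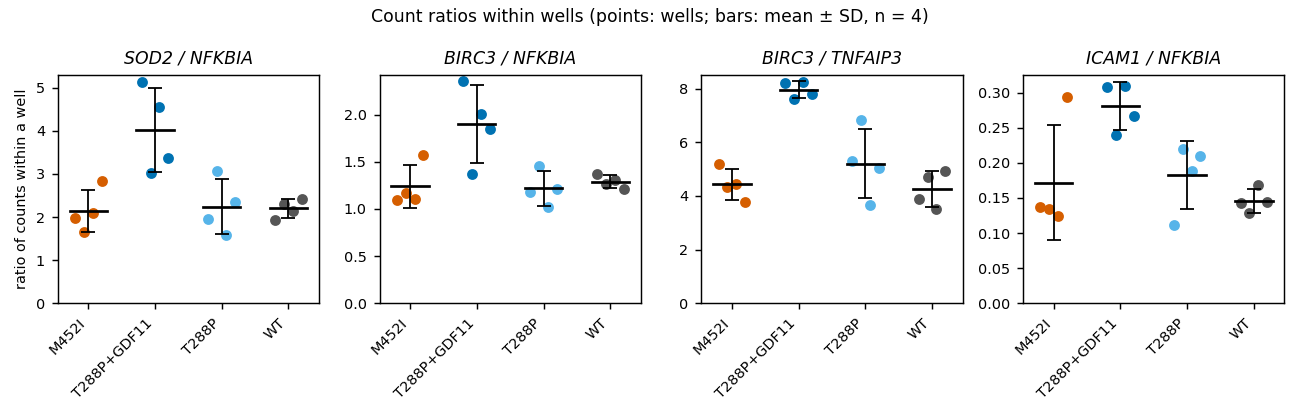
Ratio of the counts of a gene pair within each well (vertical axes, from 0), by condition. Points are wells, and bars are mean ± SD of 4 wells. For BIRC3 over TNFAIP3 the T288P+GDF11 wells lie between 7.62 and 8.27, above the wells of the other conditions. ICAM1 over NFKBIA in M452I replicate 4 (0.294) lies within the T288P+GDF11 range.

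None of the subunit genes passed the test with GDF11. NFKB1 (ENSG00000109320; chromosome 4, 102501329 to 102617302), the precursor of the DNA-binding subunit p50, had 21.1, 16.3, 23.2 and 21.1 CPM in T288P+GDF11, against 15.9, 16.5, 16.9 and 19.0 CPM in T288P. In 3 wells with GDF11 it was above every T288P well and in replicate 2 it was not (log2 fold change 0.26 ± 0.12 SE, with an edgeR adjusted p of 0.15). Leaving out T288P+GDF11 replicate 2 brought it past the threshold, with a log2 fold change of 0.37 (edgeR adjusted p = 0.0439). NFKB2 (ENSG00000077150; chromosome 10, 102394110 to 102402529), the precursor of p52 in the slower non-canonical arm, averaged 82 ± 4.77 CPM in T288P+GDF11 and 83.6 ± 6.47 CPM in T288P. RELB (ENSG00000104856; chromosome 19, 45001430 to 45038198), the partner of p52, averaged 16.9 ± 2.59 and 17.1 ± 3.53 CPM in the same order of conditions. Their log2 fold changes were -0.03 (SE 0.09) and -0.01 (SE 0.22), with edgeR adjusted p = 0.872 and 0.978.

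Of the cytokine genes, LIF did not pass with GDF11 either, and IL6 was not tested. LIF (ENSG00000128342; chromosome 22, 30240447 to 30246851), a secreted factor of the IL-6 family, averaged 38.4 ± 3.08 CPM in T288P+GDF11 and 40.3 ± 3.65 CPM in T288P (log2 fold change -0.07 ± 0.09 SE, with an edgeR adjusted p of 0.664). IL6 (ENSG00000136244; chromosome 7, 22725884 to 22732002), the inflammatory cytokine that names the family, had 3 counts in M452I replicate 4 and 4 counts each in WT replicate 3 and WT replicate 4. The other 13 wells had 0, all 8 T288P wells with and without GDF11 among them. A count of 0 allows up to 3 counts, which was 0.0649 to 0.106 CPM over the wells, a limit that covers counting error only. No fold change is given for IL6, since every condition lay at or near that limit.

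**Figure D3:**
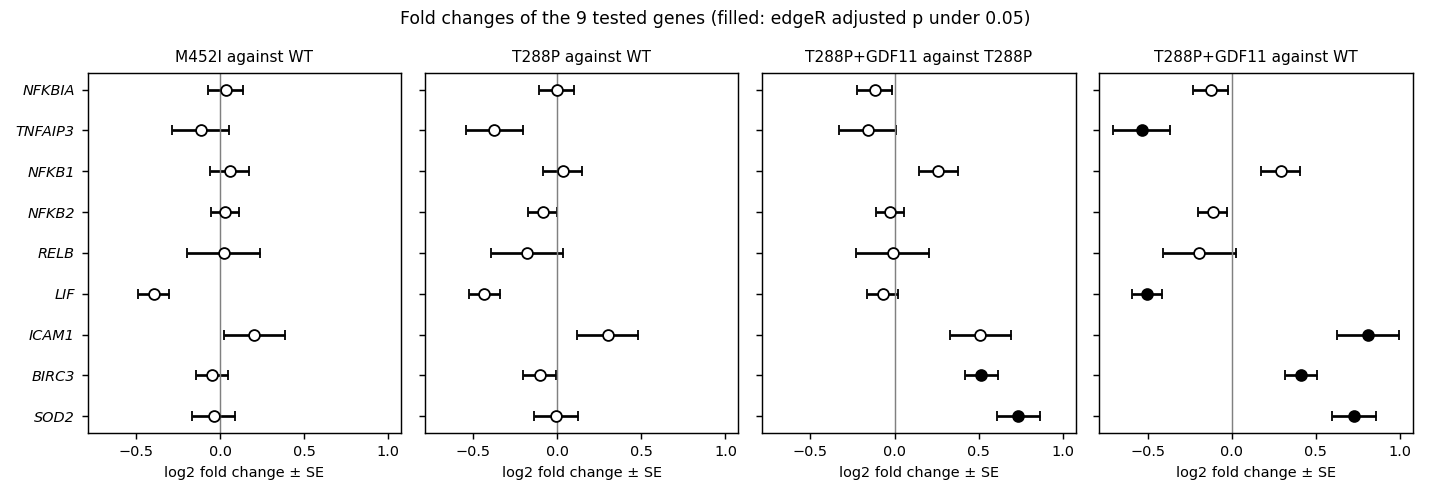
Log2 fold change ± SE (horizontal axes) of the 9 tested genes in 4 comparisons, from the edgeR model of all 16 wells. Filled points passed an adjusted p under 0.05. SOD2 and BIRC3 are filled in the comparison of T288P+GDF11 with T288P, and 5 genes are filled in that of T288P+GDF11 with WT.

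Against the wildtype allele, T288P+GDF11 differed in 5 of the 9 tested genes, 3 higher and 2 lower, where 28.9% of all genes were called, 13.8% higher and 15.1% lower. This comparison changes the allele and the ligand together and shares its wells with the others. SOD2 and BIRC3 were higher as described, and ICAM1 was higher too, at 25.2 ± 1.72 CPM in T288P+GDF11 and 14.4 ± 1.44 CPM in WT (log2 fold change 0.81 ± 0.18 SE, with an edgeR adjusted p of 0.00311). The highest WT well of ICAM1 had 16.2 CPM and the lowest T288P+GDF11 well 23.2 CPM. LIF fell, to 38.4 ± 3.08 CPM in T288P+GDF11, against 54.5 ± 4.36 CPM in WT (log2 fold change -0.50 ± 0.09 SE, with an edgeR adjusted p of 0.00064). The wells of SOD2, ICAM1 and LIF did not overlap, as was so for 35.1% of all genes.

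TNFAIP3 was the other gene that fell, to 21.1 ± 2.11 CPM in T288P+GDF11, against 30.5 ± 6.64 CPM in WT (log2 fold change -0.54 ± 0.17 SE, with an edgeR adjusted p of 0.0239). Its WT wells spread widely, with 36.4, 26.9, 35.7 and 22.9 CPM, and the last overlapped the wells with GDF11. The call ended when WT replicate 1 was dropped (edgeR adjusted p = 0.103), and likewise for WT replicate 3 (0.0869), replicate 2 of T288P+GDF11 (0.0792) and its replicate 4 (0.0518). NFKBIA, NFKB2 and RELB had log2 fold changes of -0.12, -0.11 and -0.19 against WT, none past the test. NFKB1 had 0.29 (SE 0.12, edgeR adjusted p = 0.0664), and passed without WT replicate 3 (edgeR adjusted p = 0.0397), without T288P+GDF11 replicate 2 (0.0128) or without both outlying wells (0.0388). TNFAIP3 shares 1.9% of its exon bases with an antisense gene, and without a known strand setting reads there cannot be assigned.

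The mutant alleles without GDF11 were compared with WT to ask what each allele changes alone. In M452I against WT and in T288P against WT, edgeR called 0 of the 9 genes, where it called 0.0238% and 0.0417% of all genes. An unadjusted p under 0.05 was reached by 1 gene in M452I (LIF) and 2 in T288P (LIF and TNFAIP3), as by 6.3% and 8.49% of all genes. DESeq2 called 1 gene in each, LIF, and over all genes it called 30 in M452I and 80 in T288P, or 0.292% and 0.477% of those it gave an adjusted p. LIF had 38.3, 38.4, 44.5 and 44.6 CPM in the M452I wells and 39.4, 38.5, 37.7 and 45.7 CPM in the T288P wells, against 49.2, 53.9, 59.9 and 54.99 CPM in the WT wells. Every mutant well lay below every WT well, and LIF was the only member of the 9 whose wells did not overlap in either comparison, which 4.09% of all genes did in M452I and 5.04% in T288P.

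The log2 fold change of LIF was -0.39 in M452I (SE 0.09, edgeR adjusted p = 0.427) and -0.44 in T288P (SE 0.09, edgeR adjusted p = 0.128), and DESeq2 gave adjusted p = 0.0108 and 0.00266. Without M452I replicate 4 and T288P replicate 1 the values were -0.43 and -0.43, now past the threshold (edgeR adjusted p = 0.0209 and 0.0163), where 3.72% and 4.06% of all genes were called. The 2 comparisons share the WT wells, so their likeness is no independent evidence. With GDF11 added to T288P the mean was 38.4 CPM, still below every WT well. LIF shares 2.3% of its exon bases with the antisense gene LIF-AS1 and 4.4% with a second antisense gene, and with the strand setting unknown such reads cannot be assigned.

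SOD2, BIRC3, NFKBIA, NFKB1 and NFKB2 lay within 0.11 log2 units of WT in both alleles. The largest of their differences was -0.11 (SE 0.10), for BIRC3 in T288P. TNFAIP3 averaged 28.1 ± 5.23 CPM in M452I, 23.5 ± 5.17 CPM in T288P and 30.5 ± 6.64 CPM in WT, with log2 fold changes of -0.12 (SE 0.17) and -0.38 (SE 0.17, edgeR adjusted p = 0.567) for the alleles. ICAM1 averaged 16.6 ± 5.01 CPM in M452I, 17.7 ± 4.21 CPM in T288P and 14.4 ± 1.44 CPM in WT. Its log2 fold change was 0.30 in T288P (SE 0.18, edgeR adjusted p = 0.68), and 0.46 (SE 0.10, edgeR adjusted p = 0.0176) without the outlying wells.

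The alleles were then compared with each other, M452I against T288P. EdgeR called 0 of the 9 genes, with 0 at an unadjusted p under 0.05 and 0 by DESeq2, where 0.00596% of all genes were called by edgeR and 2.18% had such an unadjusted p. The log2 fold changes ran from -0.10 for ICAM1 to 0.26 for TNFAIP3. Without the 2 outlying wells RELB was higher in M452I (log2 fold change 0.58 ± 0.12 SE, with an edgeR adjusted p of 0.00409) and ICAM1 lower (-0.48, SE 0.11, edgeR adjusted p = 0.00776), where 14.1% of all genes were called. Those values rest on the choice of wells, which was made after the data were seen.

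Single wells weighed on RELB and ICAM1. RELB had 21.3, 24.7, 22.9 and 9.38 CPM in the M452I wells and 22.2, 14.4, 16.6 and 15.2 CPM in the T288P wells. M452I replicate 4 was the lowest of all 16 wells, and T288P replicate 1 the highest of its group. ICAM1 had 14.4, 15.2, 12.7 and 23.9 CPM in the M452I wells, and there replicate 4 was the highest of the 12 wells without GDF11. NFKB1 in that well, at 20.0 CPM, was also above the other M452I wells, which lay at 16.3 to 16.9 CPM. Ribosomal protein genes took 8.66% of the counts of M452I replicate 4, against 11.8% to 12.1% in the other M452I wells, and the part of this in the member values was not tested.

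**Figure D4:**
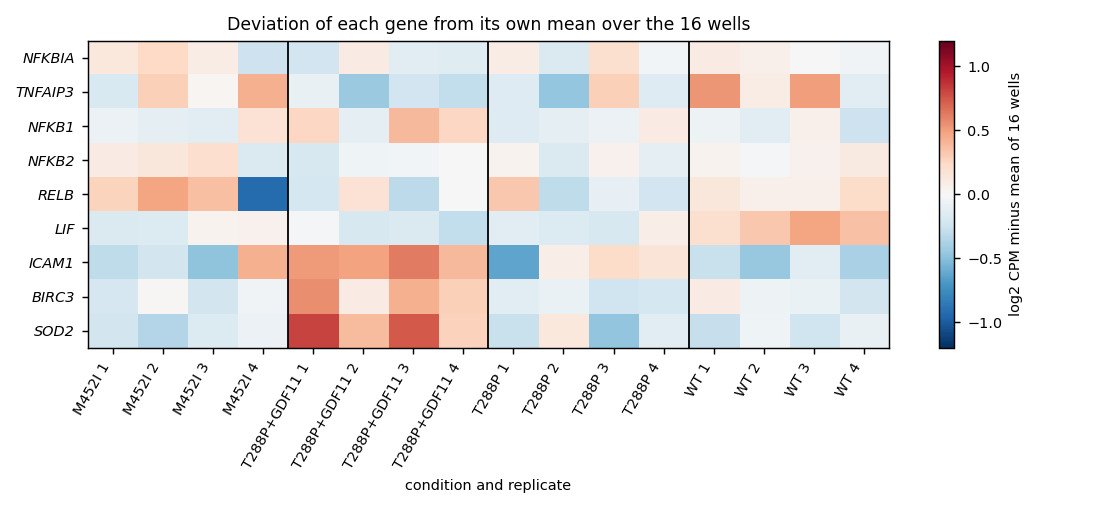
Log2 CPM of the 9 tested genes minus each gene's mean over the 16 wells (colour scale, log2 units), with wells by condition and replicate along the horizontal axis. SOD2, BIRC3 and ICAM1 are high in the T288P+GDF11 wells, LIF is high in the WT wells, and M452I replicate 4 has the lowest value of RELB (9.38 CPM).

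The genes also differed in abundance. Set per kilobase of exon (GENCODE release 29), the level in WT was 41.4 CPM per kb for NFKBIA, 19.8 for NFKB2, 16.9 for BIRC3 and 13.7 for LIF. It was 6.37 CPM per kb for RELB, 6.04 for TNFAIP3, 3.87 for ICAM1, 2.66 for NFKB1 and 0.0266 for IL6. SOD2 was left out, since its identifier is not in release 29. With GDF11, BIRC3 reached 22.4 CPM per kb in T288P+GDF11, against 15.7 in T288P, and NFKB2 had 18.3 and 18.6. BIRC3 thus stood above NFKB2 in the T288P+GDF11 wells and below it in the other 3 conditions.

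ICAM1 had the widest range of condition means, 0.81 log2 units between T288P+GDF11 and WT. The 4 genes whose levels, each centred on its own mean of log2 CPM, came closest to ICAM1 over the 16 wells were GTF2H1, PARP4, FBXW8 and VANGL1. Their root mean square difference from ICAM1 was 0.109 to 0.115 log2 units, where the median over all tested genes was 0.507. GTF2H1 had geometric means of 44.3 CPM in T288P+GDF11, 32.8 in T288P, 30.2 in M452I and 25.8 in WT, the same order as ICAM1. That order follows from picking the closest genes in these same wells.

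The rest of the pathway was followed in 6 gene lists that were drawn up with earlier results of these data known. With GDF11, the receptors, adaptors and kinases that carry signals to NF-kB moved in both directions. Of 28 listed genes 26 were tested, 3 rose, 4 fell and 19 did not pass, with a median log2 fold change of -0.03. Over all tested genes 12.9% were called, 5.07% higher and 7.88% lower. TLR2, a receptor for bacterial lipoproteins, stood at 12 ± 1.59 CPM in T288P+GDF11 and 3.76 ± 1.77 CPM in T288P (log2 fold change 1.67 ± 0.51 SE, with an edgeR adjusted p of 0.044). TLR4, the endotoxin receptor (1.66 ± 0.699 and 0.437 ± 0.243 CPM), and the kinase IRAK4 (14.2 ± 0.988 and 10.1 ± 1.99 CPM) also rose. TRAF6, the ubiquitin ligase downstream of these receptors, fell to 24.1 ± 2.1 CPM in T288P+GDF11, against 33.9 ± 2.32 CPM in T288P (log2 fold change -0.50 ± 0.09 SE, with an edgeR adjusted p of 0.00208), and TAB2 and MAP3K14, the kinase of the non-canonical arm, fell by 0.34 (SE 0.09) and 0.66 (SE 0.18) on the log2 scale.

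The TRAF6 call stayed in all 8 fits that each dropped 1 well, and those of TAB2, TLR4, MAP3K14, IRAK4 and TLR2 did not. TAB2 lost its call without T288P replicate 3 (edgeR adjusted p = 0.0521). TLR4 lost it without replicate 1 or 4 of T288P or without replicate 1 or 3 of T288P+GDF11, with edgeR adjusted p up to 0.0806. MAP3K14 lost it without replicate 1 or 4 of T288P or without replicate 2 or 3 of T288P+GDF11, with edgeR adjusted p up to 0.0666. For IRAK4 the call survived the loss of replicate 4 of either condition and of no other well, and for TLR2 that of T288P replicate 3 alone, with edgeR adjusted p up to 0.106 and 0.144. With no filter on low counts, TAB2, MAP3K14, IRAK4 and TLR2 were not called, at edgeR adjusted p of 0.0539, 0.0826, 0.0515 and 0.141.

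Of the other NF-kB subunits and inhibitors, 17 genes that were all tested, 0 rose and 2 fell, with a median of -0.27, where 12.9% of all genes were called and 7.88% were lower. CYLD, a deubiquitinase that restrains the pathway, fell to 84 ± 10.8 CPM in T288P+GDF11, against 135 ± 21.5 CPM in T288P (log2 fold change -0.69 ± 0.13 SE, with an edgeR adjusted p of 0.00228), and kept its call without any 1 well. RELA, the main transactivating subunit p65, fell by 0.29 on the log2 scale (SE 0.09, edgeR adjusted p = 0.0446). Each of the 8 fits with 1 well dropped ended the RELA call, with edgeR adjusted p up to 0.137, as did the replicate block (0.0683), RLE factors (0.0567) and no filter (0.185). Against WT, 10 of the 17 were lower in T288P+GDF11 and 0 higher, where 15.1% of all genes were lower and 13.8% higher. The subunit gene REL stood at 35.5 ± 10.4 CPM in T288P+GDF11 and 76.6 ± 7.33 CPM in WT (log2 fold change -1.11 ± 0.19 SE, with an edgeR adjusted p of 0.000353).

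**Figure D5:**
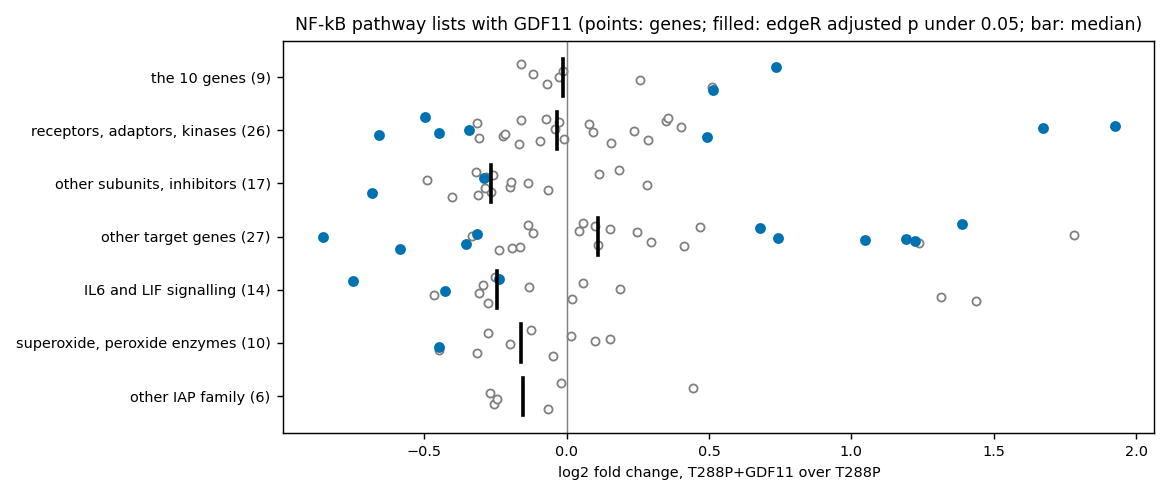
Log2 fold change of T288P+GDF11 over T288P (horizontal axis) for the tested genes of each list, with the number tested in brackets. Points are genes, filled where the edgeR adjusted p was under 0.05, and black bars are medians. The other subunits and inhibitors have a median of -0.27, and the other target genes hold filled points on both sides of 0.

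Other known NF-kB targets moved in both directions. Of 38 listed, 27 were tested, 6 rose, 4 fell and 17 did not pass with GDF11 (median log2 fold change 0.11). The shares over all tested genes were 12.9% called, 5.07% higher and 7.88% lower. The neutrophil-attracting chemokines rose, CXCL1 to 105 ± 14.6 CPM in T288P+GDF11, against 45.2 ± 9.23 CPM in T288P, and CXCL3 to 29.9 ± 3.66 CPM, against 13.1 ± 2.9 CPM. CXCL8 measured 191 ± 16.7 and 115 ± 12.6 CPM in the same order of conditions, and edgeR adjusted p-values of the 3 ran from 0.000269 to 0.00169. The survival genes BCL2L1 and CFLAR fell by 0.58 (SE 0.10) and 0.35 (SE 0.08) on the log2 scale, and the stress gene GADD45B by 0.86 (SE 0.21). All of these kept their calls without any 1 well, except GADD45B, which was lost without replicate 1 of T288P (edgeR adjusted p = 0.0616), replicate 1 of T288P+GDF11 (0.0517) or the filter on low counts (0.0524). PLAU, the gene of urokinase, was also among the 6 that rose, at 48.6 ± 3.44 CPM in T288P+GDF11 and 30.4 ± 5.55 CPM in T288P. Its log2 fold change was 0.68 (SE 0.12, edgeR adjusted p = 0.00185), and its WT mean was 25.5 ± 3.22 CPM.

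The interleukin-1 genes, also NF-kB targets, did not follow SOD2 and BIRC3. IL1B stood at 112 ± 6.5 CPM in T288P+GDF11 and 122 ± 16.4 CPM in T288P (edgeR adjusted p = 0.534). It was the one gene of the 6 lists called in either allele against WT, at 117 ± 20.4 CPM in M452I, 122 ± 16.4 CPM in T288P and 72 ± 6.93 CPM in WT, with edgeR adjusted p of 0.04999 and 0.0329. Those calls ended in 6 of the 8 fits that dropped 1 well in each comparison, with edgeR adjusted p up to 0.321 in M452I and 0.229 in T288P, and with the replicate block (0.0957 and 0.0681). For M452I the RLE factors (0.0563) and a model without the T288P conditions (0.475) ended it too. IL1A fell to 526 ± 46.1 CPM in T288P+GDF11, against 653 ± 38.6 CPM in T288P (edgeR adjusted p = 0.0343). That call stayed only when replicate 2 or 4 of T288P+GDF11 was the well dropped, with edgeR adjusted p up to 0.117 among the rest, and ended with the replicate block (0.0532) or no filter (0.115).

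The receptors, transducers and related ligands of LIF and IL6 signalling showed 0 higher and 3 lower among 14 tested with GDF11, with a median of -0.25, where 7.88% of all genes were called lower. The kinase gene JAK1 fell to 102 ± 5.8 CPM in T288P+GDF11, against 138 ± 11.3 CPM in T288P (log2 fold change -0.43 ± 0.10 SE, with an edgeR adjusted p of 0.00729), and kept its call without any 1 well. SOCS3, the feedback inhibitor of these receptors, had 5.85 ± 0.6 CPM in T288P+GDF11 and 9.86 ± 3.29 CPM in T288P (edgeR adjusted p = 0.0387), and STAT3 78.1 ± 5.28 and 92.2 ± 2.92 CPM (0.0406). The SOCS3 call stayed when replicate 2 or 4 of T288P was dropped, and the STAT3 call when replicate 4 of T288P+GDF11 was. Dropping any other well ended them, with edgeR adjusted p up to 0.139 for SOCS3 and 0.128 for STAT3. The replicate block gave 0.0652 for SOCS3 and 0.0743 for STAT3, and no filter gave 0.0513 and 0.253. STAT3 also ended with RLE factors (0.0546) and with the T288P+GDF11 and T288P wells alone (0.0833).

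Among the relatives of SOD2 and BIRC3, none was called higher with GDF11. Of 10 tested enzymes that remove superoxide or peroxide, 0 rose and 1 fell with GDF11, where 5.07% and 7.88% of all genes did. The gene that fell was PRDX1, at 292 ± 24.7 CPM in T288P+GDF11 and 399 ± 41.6 CPM in T288P (edgeR adjusted p = 0.0123), a call that ended without T288P replicate 1 (0.0609). Against WT, CAT, the catalase gene, was lower in T288P+GDF11, at 15.3 ± 2.27 CPM, than the 20.1 ± 1.47 CPM of WT (edgeR adjusted p = 0.0241), though 6 of the 8 fits that dropped 1 well did not call it (up to 0.0958), nor did the fit with no filter (0.0765). SOD1, the cytosolic dismutase, had 71.8 CPM in T288P+GDF11 and 78.3 CPM in T288P (log2 fold change -0.12 ± 0.12 SE, with an edgeR adjusted p of 0.533). Of 6 tested genes of the inhibitor of apoptosis family and its antagonist, edgeR called 0 with GDF11, DESeq2 called 0, and 1 had an unadjusted p under 0.05, as 28.3% of all genes did. Against WT 3 were lower, where 15.1% of all genes were, among them BIRC6, at 151 ± 36.5 CPM in T288P+GDF11 and 211 ± 10.4 CPM in WT (edgeR adjusted p = 0.00905), and BIRC5, at 24.2 ± 1.95 and 32.1 ± 3.3 CPM (0.0181), which was not called without replicate 4 of T288P+GDF11 or replicate 3 or 4 of WT (up to 0.0816). BIRC2, which lies next to BIRC3 and encodes cIAP1, had 79.5 CPM in T288P+GDF11 and 83.2 CPM in T288P (log2 fold change -0.06 ± 0.07 SE, with an edgeR adjusted p of 0.606).

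Markers of fibroblasts and endothelium were low in every well. Fibroblast markers summed to 0.131 to 1.43 CPM in the T288P+GDF11 wells, against 0 to 0.108 CPM in the T288P wells, with 1 of 5 tested and LUM and THY1 at 0 in every well. Endothelial markers summed to 2.08 to 3.47 CPM and 0.46 to 0.928 CPM in the same order, 2 of 4 tested and both called higher. The epithelial list summed to 3994 to 5214 CPM in T288P+GDF11 and 5950 to 8222 CPM in T288P, and 4 of its 8 genes fell. Over all tested genes 5.07% were called higher and 7.88% lower. The part of these markers in the values of SOD2 and BIRC3 was not tested.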

How the data were processed

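The authors deposited whole-number counts per gene for the 16 libraries, not normalized. Per the submitters' processing notes, HISAT2 and StringTie 2.2.1 were used with GRCh38. How reads were counted, with which annotation and which strand option, is not given in the sources used here. Each column matched the title of 1 library, 0 columns were left unused and 0 lines lacked a gene name.

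From the counts, edgeR 4.0.16 in R 4.3.3 fitted 1 model of all 16 libraries without a covariate, with TMM factors, filterByExpr (minimum count 10), robust dispersions and the quasi-likelihood F test. Benjamini-Hochberg adjustment ran over 16790 genes, with calls at an adjusted p under 0.05. Each standard error is the size of the log2 fold change over the root of F. Alternatives were DESeq2 1.42.0, RLE factors, no filter, only the conditions compared, the replicate block, each library left out, and, added after seeing the data, M452I replicate 4 and T288P replicate 1 left out. The edgeR test was also run on simulated counts drawn from the means, library sizes and fitted dispersion trend of the real data.

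The members and lists were chosen with earlier results of these data known. All members are named, and of each list up to 3 called genes in each direction for T288P+GDF11 against T288P and up to 2 otherwise, by adjusted p, plus IL1A, IL1B, CXCL1, CXCL8, PCSK5 and the 4 genes most like the member with the widest range. SOD1, BIRC2, the count ratios between members and the marker genes named were added after their values were seen. Coordinates by identifier are those of GENCODE release 29 for 9 members.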

Additional observations from a re-analysis of the deposited data

Results flagged for a closer look

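NFKB1 in M452I replicate 4, at 20.0 CPM, stood far above the other 3 M452I wells, which had 16.3, 16.3 and 16.9 CPM: the gap to the nearest was 0.846 of the whole range, past Dixon's critical value for 4 samples. It was the 1 such value among 36 gene and condition groups, and chance gives about 1 in 20.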

How the results depend on the processing

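The calls of SOD2 and BIRC3 in T288P+GDF11 against T288P and against WT, and those of ICAM1 and LIF against WT, held under DESeq2, RLE factors, no filter, only the 2 conditions compared, the replicate block, each well dropped and both outlying wells left out. Counts over all genes moved more. In M452I against WT, 4 genes were called, 30 by DESeq2, 0 with only the 2 conditions compared, 640 without both outlying wells and 1 to 9 with 1 well dropped. In T288P against WT, 7 were called, 80 by DESeq2, 11 with no filter, 1 with the replicate block, 698 without both outlying wells and 1 to 16 with 1 well dropped. In T288P+GDF11 against T288P, 2174 were called, 1391 with no filter and 1028 to 1912 with 1 well dropped, and the split of 851 higher and 1323 lower became 1324 higher and 1245 lower with only the 2 conditions compared. In M452I against T288P, 1 was called, 6 by DESeq2, 0 with only the 2 conditions compared and 2420 without both outlying wells. Of the 9 members, DESeq2 and the fit without both outlying wells each called 1 in M452I against WT. In T288P against WT DESeq2 called 1 and the fit without both outlying wells 2, and in M452I against T288P the fit without both outlying wells called 2. The cause was not tested. Without both outlying wells, the log2 fold change changed sign, always short of the threshold, to -0.048 for CXCL1 in M452I against WT, -0.026 for ICAM1 in M452I against WT, -0.0048 for LIF in M452I against T288P, -0.080 for NFKB1 in M452I against T288P, -0.015 for NFKB1 in M452I against WT, 0.0032 for NFKB2 in T288P+GDF11 against T288P, 0.14 for RELB in T288P+GDF11 against T288P, 0.024 for SOD2 in T288P against WT. With no filter on low counts, the log2 fold change changed sign, always short of the threshold, to 0.0072 for NFKB2 in T288P+GDF11 against T288P, 0.023 for RELB in T288P+GDF11 against T288P. With only the 2 conditions compared, the log2 fold change changed sign, always short of the threshold, to 0.0002 for NFKB2 in T288P+GDF11 against T288P, -0.0016 for RELB in M452I against WT, 0.015 for RELB in T288P+GDF11 against T288P. With the replicate block, the log2 fold change changed sign, always short of the threshold, to 0.017 for CXCL8 in M452I against WT, -0.017 for RELB in M452I against WT. With 1 well dropped, log2 fold changes in M452I against WT that took both signs ran over these ranges: BIRC3 -0.099 to 0.0089, CXCL1 -0.048 to 0.31, CXCL8 -0.11 to 0.12, ICAM1 -0.026 to 0.31, NFKB1 -0.015 to 0.11, NFKB2 -0.019 to 0.10, NFKBIA -0.030 to 0.12, RELB -0.11 to 0.25, SOD2 -0.083 to 0.012. With 1 well dropped, log2 fold changes in T288P against WT that took both signs ran over these ranges: CXCL8 -0.19 to 0.041, NFKB1 -0.020 to 0.091, NFKBIA -0.067 to 0.057, SOD2 -0.12 to 0.079. With 1 well dropped, log2 fold changes in M452I against T288P that took both signs ran over these ranges: ICAM1 -0.33 to 0.0068, IL1A -0.045 to 0.024, LIF -0.0018 to 0.10, NFKB1 -0.048 to 0.077, NFKBIA -0.028 to 0.13, SOD2 -0.12 to 0.080. With 1 well dropped, log2 fold changes in T288P+GDF11 against T288P that took both signs ran over these ranges: LIF -0.12 to 0.017, NFKB2 -0.050 to 0.017, RELB -0.092 to 0.15. Same-numbered wells did not deviate together: over 24 pairs the correlation of their deviations ran from -0.185 to 0.155, 3 pairs were over 0.1, and 3 of 16 wells correlated best with their own number. The numbers are therefore not taken to pair the wells, and with the replicate block 1836 genes were called in T288P+GDF11 against T288P and 2 of the members. Depth limits IL6, and 4 wells of 1 line per allele limit the rest.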
